A study of Mus musculus with 6 samples.

Results

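The genes of the cytosolic ribosomal proteins were measured by RNA-seq in mouse Foxp3+ iTreg, regulatory T cells induced in culture, with and without prostaglandin E2 (PGE2). They were taken by name: every annotated gene whose symbol starts with Rpl or Rps and a digit, with Rplp0, Rplp1, Rplp2 and Rpsa, without symbols that contain -ps, S6 kinases and Rps19bp1. Of 91 such genes, 87 had a mean of at least 1 FPKM (fragments per kilobase, relative to all fragments of the library) over the 6 libraries, out of 12113 tested genes. Splenic CD4+ T cells of C57BL/6 mice with the Foxp3-DTR/EGFP reporter, carried by both groups, were held for 2 days with plate-bound antibody to CD3, soluble antibody to CD28 and TGF-β. They then received 100 nM PGE2 or vehicle (DMSO) for 6 h and were sorted on EGFP as Foxp3+ cells. There were 3 libraries with PGE2 and 3 with vehicle. The labels give neither the age nor the sex of the mice, and do not say whether each library stands for another mouse or culture. The p-values therefore reflect the spread among these 6 libraries, which may be technical.

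The cytosolic ribosome joins a small subunit, which reads the mRNA, to a large subunit, which forms the peptide bonds. Each protein is present once per ribosome, apart from the stalk proteins, and cells that grow and divide, such as activated T cells, make many ribosomes. In mammals the mRNAs of ribosomal proteins start with a run of pyrimidines, the 5′ terminal oligopyrimidine (TOP) motif. Through it the kinase mTORC1 and the RNA-binding protein Larp1 control their translation, so mRNA level and protein output need not move together.

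The 87 genes comprise 77 core genes, 46 of the large and 31 of the small subunit, and 10 others. The 10 others are the paralogs Rpl7l1, Rpl22l1, Rps27l and Rpl36al, the retrocopy Rps27rt, annotated as protein coding, and Rpl6l, Rpl37rt, Rps3a2, Rps3a3 and Rps4l, which GENCODE annotates as processed pseudogenes. The name rule therefore holds 5 pseudogenes beside 82 protein-coding genes. It leaves out genes of other names, such as Fau, which encodes a ribosomal protein fused to a ubiquitin-like protein. Just inside the level threshold was Rps4l, at 1.70, 1.85 and 2.52 FPKM with PGE2 and 2.20, 2.43 and 1.94 FPKM with vehicle. Just outside it was Rpl39l, a paralog of Rpl39, at 0.472, 0.604 and 0.534 FPKM with PGE2 and 0.189, 0.447 and 0.165 FPKM with vehicle. Rps12l1 and Rpl3l were lower still, and Rpl10l was listed at 0 in every library.

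Beyond their names, most core genes with a promoter sequence held a pyrimidine run near the annotated start of the gene. RefSeq promoter sequences (GRCm38.p6, the assembly of mm10) were at hand for 63 of the 87 genes, 57 of them core. The 50 bases before and 50 after each annotated start were searched for a C followed by at least 7 further C or T. On the transcribed strand 46 of 57 core genes (80.7%) held such a run, against 26.9% of 7903 tested genes with a promoter sequence, 30.9% of 68 mitochondrial ribosomal protein genes and 9 of 31 translation factors. On the opposite strand the share was 21.1% for core genes and 29.4% for all of them. The letters CTTTCC, which can lie inside such a run, were found on the transcribed strand in 28.1% of core genes and 4.50% of all, and on the opposite strand in 1.75% and 3.66%. A match describes the letters only, and the run could lie anywhere in the window, so it need not be where the mRNA starts. Among the genes shown with a run, it began between 39 bases before the annotated start (Rpl22) and 29 bases after it (Rpl36al). For the 14 genes shown, the RefSeq start lay 0 to 336 bases from the start in GENCODE, and the search and the genes shown were chosen after promoters of these genes had been looked at.

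The first set of sequences shows that run in genes of different roles. Each is 30 bases on the transcribed strand, 5′ to 3′, with the run in capitals, for Rps6 (the S6 kinase target), Rpl5 and Rpl11 (partners of 5S rRNA), Rplp2 (stalk), and Rps18 and Rpl35a, whose FPKM is taken up later.
Rps6: aagtcgggCCTCTTTTTCgtgacgcctccc
Rpl5: tacagccaCTCTTTCTCacgtcgcttgcgt
Rpl11: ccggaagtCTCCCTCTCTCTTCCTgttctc
Rplp2: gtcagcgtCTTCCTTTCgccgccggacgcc
Rps18: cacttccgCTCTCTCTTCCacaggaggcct
Rpl35a: ggggcttgCCTTCCTCTTTCCgccatcttg
They lie at chr4:86857347-86857376 (minus strand), chr5:107900500-107900529 (plus), chr4:136053358-136053387 (minus), chr7:141447639-141447668 (plus), chr17:33955646-33955675 (minus) and chr16:33056469-33056498 (plus).

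The second set sets core genes beside their paralogs, in pairs, again with the run in capitals, followed by 2 genes without one, which are shown around their annotated start.
Rps27: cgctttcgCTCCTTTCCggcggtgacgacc
Rps27l: cgcctccaCTCCTCTCCactcctccccgcc
Rpl22: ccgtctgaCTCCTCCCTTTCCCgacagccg
Rpl22l1: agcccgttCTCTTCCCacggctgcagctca
Rpl36a: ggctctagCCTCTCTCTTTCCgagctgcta
Rpl36al: tctgttcgtCCCTTTCCTgttcggcgcgtg
Rplp0: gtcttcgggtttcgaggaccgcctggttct
Rpl7l1: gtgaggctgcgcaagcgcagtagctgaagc
Both members of these 3 pairs held a run of 8 to 14 bases. Rpl7l1, a paralog of Rpl7, held none in its window, nor did the core gene Rplp0.

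After 6 h of PGE2, 0 of the 87 ribosomal protein genes rose and 0 fell at adjusted p under 0.05 (limma on log2(FPKM + 1)), where 0.809% of all 12113 tested genes were called. With the replicate number as a block the count stayed at 0, where 3.26% of all tested genes were called. Before adjustment, limma gave a p under the same threshold for 1 of the 87, which was lower with PGE2, against 13.0% of all tested genes in either direction. The values of the groups did not overlap for 1 of the 87, the paralog Rpl7l1, against 19.7% of all tested genes. Of the 77 core genes, 67 had a higher mean log2 level with PGE2, and for 10 it was lower. It was higher for 5250 of all 12113 tested genes and for 454 of the 668 at 100 FPKM or more. Genes that share libraries are not independent counts. The median log2 change of the core genes was 0.07 and that of all 87 was 0.06, against -0.03 for all tested genes. For the 668 tested genes at 100 FPKM or more the median was also 0.06. Without PGE2 replicate 3 the median of the 87 was -0.04, and with both libraries numbered 3 left out it was -0.01, so its direction rests on that library.

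**Figure D1:**
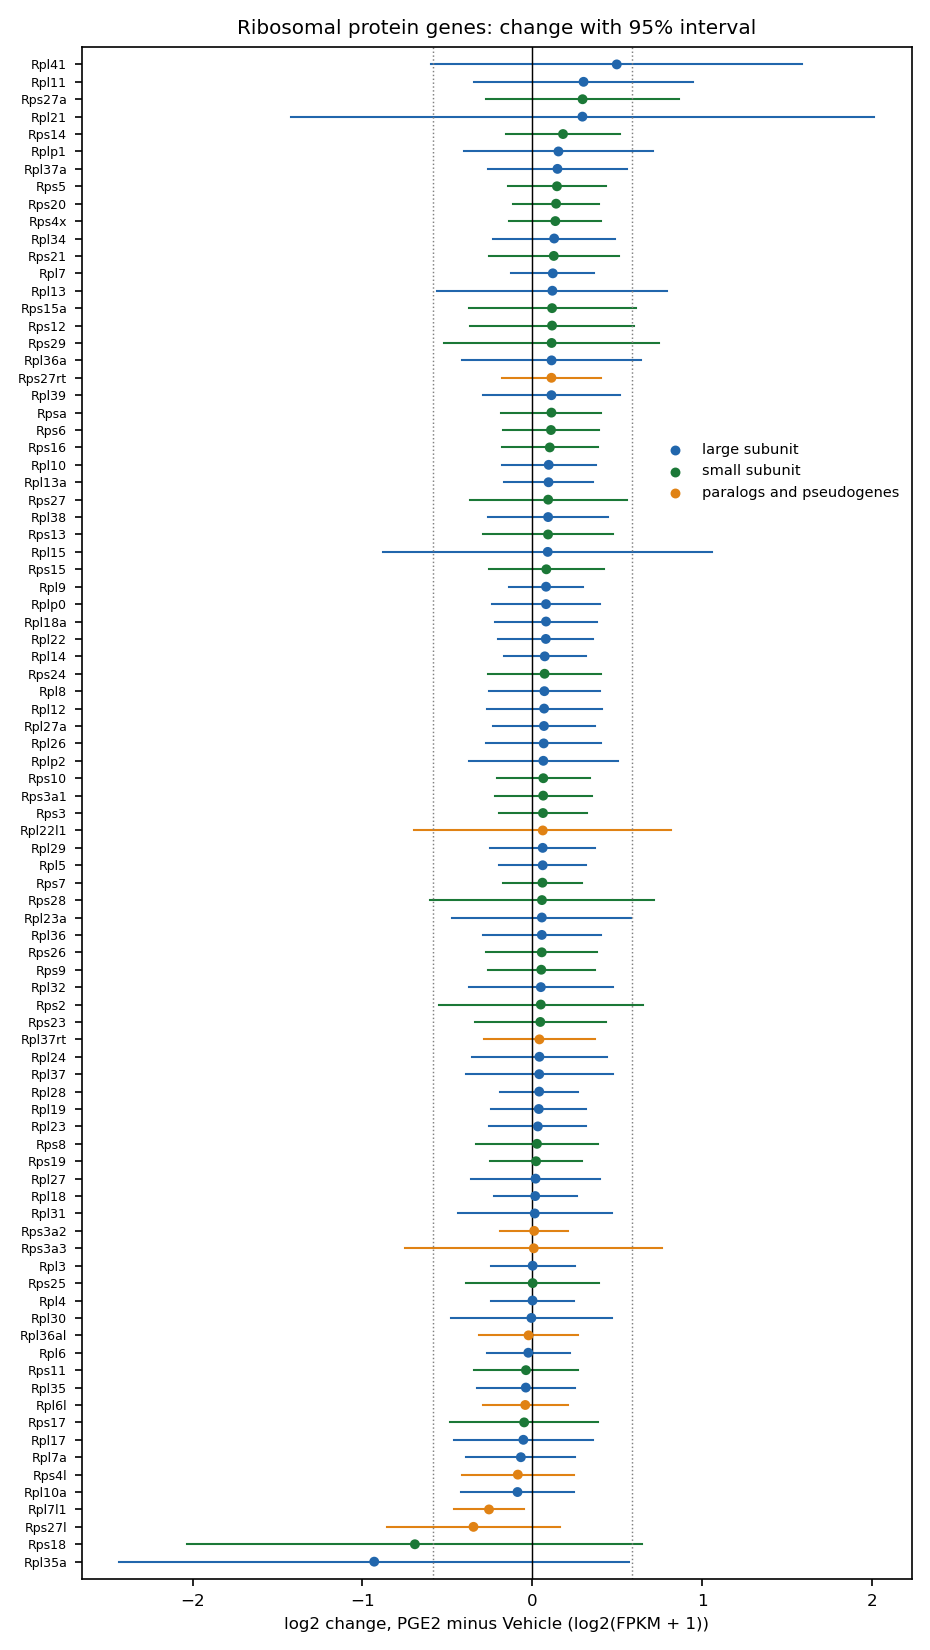
Log2 change of each of the 87 genes, PGE2 minus vehicle on the log2(FPKM + 1) scale, with its 95% interval from limma; blue is large subunit, green small subunit, orange paralogs and pseudogenes, and dotted lines mark 1.5-fold. Of the points, 77 lie within 0.15 of 0, and Rpl35a at -0.93 and Rps18 at -0.69 have the lowest values with intervals that span 0.

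The intervals give, for each gene on its own, the range of change that these 6 libraries leave possible on the FPKM scale. For 69 of the 87 genes (79.3%) the 95% interval of the change lay inside 1.5-fold in both directions, and for 82 it lay inside 2-fold. For all tested genes the share was 75.3% inside 1.5-fold and 94.9% inside 2-fold. With read coverage divided by library depth in place of FPKM, 76 lay inside 1.5-fold and all 87 inside 2-fold. Of all 12113 tested genes, 10165 and 11722 did so in coverage. A missed threshold alone does not show that a level was the same.

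Ribosomal protein genes took a large part of the measured mRNA. Their FPKM summed to 64494, 69889 and 84813 with PGE2 and to 72444, 64288 and 71915 with vehicle. That is 14.9%, 15.5% and 17.6% of the FPKM of all annotated genes with PGE2, and 16.3%, 15.1% and 15.8% with vehicle. The groups overlapped, with PGE2 replicate 3 above the other 5 libraries and PGE2 replicate 1 and vehicle replicate 2 lowest. The mean sum was 73066 ± 10525 with PGE2 and 69549 ± 4564 with vehicle (SD, n = 3 each), a ratio of 1.05. The large subunit gave 38823 ± 4729 and the small subunit 34243 ± 5804 with PGE2, against 36979 ± 2722 and 32570 ± 2379 with vehicle.

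One library carried much of the spread within the family. Of the 77 core genes, 51 had their highest FPKM of all 6 libraries in PGE2 replicate 3, and 62 had their highest of the PGE2 libraries there. PGE2 replicate 1 held the lowest PGE2 value for 67 of them, and vehicle replicate 2 the lowest vehicle value for 52. On the log2 scale the core genes deviated from the mean of their group by a median of -0.16, -0.03 and 0.18 in PGE2 replicates 1, 2 and 3 and by 0.05, -0.10 and 0.04 in vehicle replicates 1, 2 and 3. Over all tested genes these medians lay between -0.03 and 0.03.

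**Figure D2:**
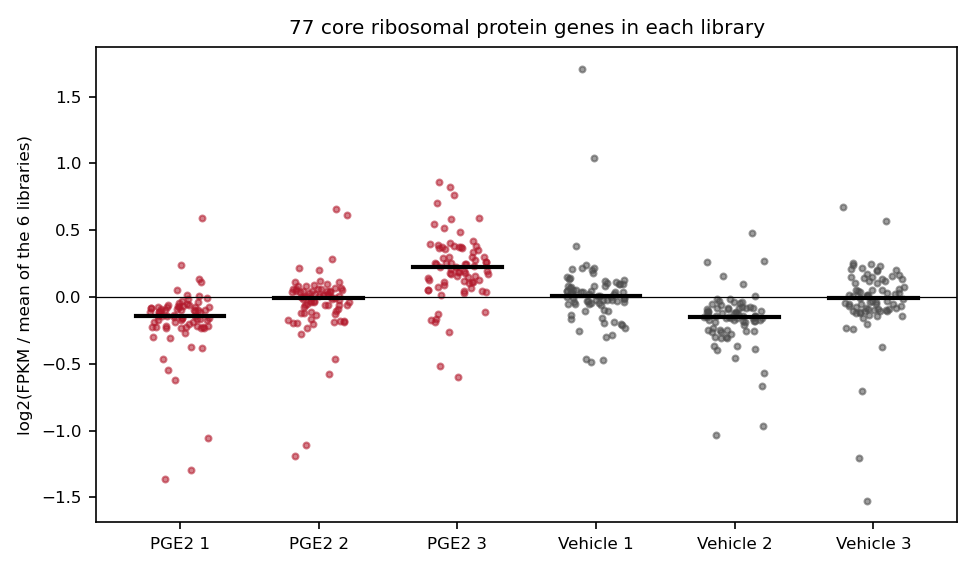
Each point is 1 of the 77 core genes, as log2 of its FPKM in a library over its mean in the 6 libraries; black bars are medians, PGE2 libraries are red and vehicle libraries grey. The points of PGE2 replicate 3 sit above 0 for most genes, while those of PGE2 replicate 1 and vehicle replicate 2 sit below it.

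The excess in the libraries numbered 3 was larger for short genes. In PGE2 replicate 3, core genes with a coding length of at most 400 bases (24 genes) were above the mean of PGE2 replicates 1 and 2 by a median of 0.50 on the log2 scale, and the other 53 by 0.20. Of the short genes 23 were higher there, and of the others 45. In vehicle replicate 3 these medians were 0.18 and 0.01, with 19 of the short genes and 28 of the others higher. Rpl39, a very short protein at the exit of the peptide tunnel with a coding length of 153 bases, was at 506, 553 and 745 FPKM with PGE2 and 506, 509 and 640 FPKM with vehicle. Rpl4, with 1257 coding bases, was at 1607, 1722 and 1688 FPKM with PGE2 and 1698, 1625 and 1686 FPKM with vehicle. Both groups thus had their highest Rpl39 value in the library numbered 3, which Rpl4 did not show. Across the 77 core genes this difference and coding length had a Spearman rho of -0.65 in PGE2 and -0.32 in vehicle, and across 10239 tested coding genes -0.48 and -0.15. These are descriptions over genes that share libraries. Depth, as the ratio of coverage to FPKM, was 4.54 in PGE2 replicate 3 and 3.996 in vehicle replicate 3, against 5.04 to 5.45 in the other 4 libraries. The part of depth in this pattern was not tested.

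The sorted cells carried the markers of their label: Foxp3 was at 136, 119 and 91.1 FPKM with PGE2 and 99.4, 101.4 and 75.4 FPKM with vehicle. The 8 regulatory and CD4 T cell markers summed to 2066 to 2139 FPKM with PGE2 and 1922 to 1980 with vehicle. The 5 myeloid markers, found as 6 gene IDs, summed to at most 4.48 FPKM with PGE2 and 5.37 with vehicle, with Lyz2 at 0 in 2 PGE2 libraries and 1 vehicle library. With PGE2 and with vehicle, the highest sum was 4.33 and 5.70 FPKM for 5 B cell markers, 11.1 and 8.06 FPKM for 5 CD8 and NK markers, and 1.16 and 0.921 FPKM for 4 erythroid and platelet markers. The CD8 and NK sum was higher in every PGE2 library than in every vehicle library. It was 8.46, 8.60 and 11.1 FPKM with PGE2 and 6.56, 6.19 and 8.06 FPKM with vehicle. Of the 8 T cell markers 1 rose with limma, Ctla4 (log2 change 0.79, adjusted p = 0.0076). Of the CD8 and NK markers 1 was called only with the block. The part of these markers in the results was not tested. In bulk samples a change in the share of a cell type and a change in RNA per cell cannot be told apart.

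Levels in annotated FPKM differed widely within the family although, apart from the stalk, the proteins are used in equal numbers. Mean FPKM over the 6 libraries ran from 109 for Rpl21 to 2210 for Rplp1 among core genes, with a median of 823. The median was 706 for the large and 1066 for the small subunit. For some low genes the loci assembled by the authors over the gene gave other levels. Rpl30 had a mean of 150 FPKM, with its locus at 867 to 1418 FPKM over the 6 libraries. Rpl9 had a mean of 216 FPKM, with its locus at 843 to 1002 FPKM. Rps20 had a mean of 223 FPKM, with its locus at 206 to 264 FPKM. The range and the subunit medians were not tested on the assembled loci. Of the 67 tested genes above 1000 FPKM, 32 were ribosomal protein genes. The 6 highest were Rplp1, Rplp0, Rpl19, Rps9, Rpl4 and Rpl32. Of these, Rpl19 was at 1639, 1784 and 1817 FPKM with PGE2 and 1879, 1626 and 1605 FPKM with vehicle, Rps9 had a log2 change of 0.05 (SE 0.13), and Rpl32 of 0.05 (SE 0.18).

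Levels of single genes are uncertain where processed pseudogenes share their reads. The files hold 270 pseudogenes named after a ribosomal protein with -ps in the symbol, 126 of them at 1 FPKM or more. Of the 77 core genes, 57 have at least 1 of this kind. For Rpl17 the pseudogenes summed to a mean of 1025 FPKM against 250 for the gene, and for Rpl21 to 384 against 109. With only these counted, the pseudogene share was under 5% for 45 of the 77 core genes and over 20% for 18. Pseudogenes of other names were left out of these counts. Among them were Rpl6l, at a mean of 130 FPKM beside 490 for Rpl6, and Rpl37rt, at 137 beside 464 for Rpl37. Rps3a2 was at 41.8 FPKM beside 1281 for Rps3a1. Of the 126 tested pseudogenes, 0 were called by limma, with and without the replicate block. Before adjustment, limma gave p under 0.05 for 5, all higher with PGE2, against 661 of all 12113 tested genes in that direction. The median log2 change of the pseudogenes was 0.09.

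The stalk proteins, which draw translation factors to the large subunit, were not called. Rplp1 was at 1882, 1946 and 3235 FPKM with PGE2 and 2224, 1688 and 2288 FPKM with vehicle (log2 change 0.15, 95% interval -0.40 to 0.71). PGE2 replicate 3 alone stood apart for this gene. Rplp0 was at 1989, 2014 and 2164 FPKM with PGE2 and 2269, 1851 and 1742 FPKM with vehicle (log2 change 0.08, interval -0.24 to 0.40), and Rplp2 had a log2 change of 0.07. The groups overlapped for all 3.

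Rpl5 and Rpl11 bind 5S rRNA, and outside the ribosome they bind Mdm2, the ubiquitin ligase of p53. Rpl5 was at 568, 611 and 674 FPKM with PGE2 and 619, 547 and 608 FPKM with vehicle (log2 change 0.06, interval -0.19 to 0.32). Rpl11 was at 269, 384 and 605 FPKM with PGE2 and 305, 288 and 379 FPKM with vehicle (log2 change 0.30, interval -0.34 to 0.95), while without PGE2 replicate 3 it was 0.00, as was its change in coverage (SE 0.10). Both genes had overlapping groups.

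Around the sites where peptides are made, Rpl3, Rpl8 and Rpl10 lie near the peptidyl transferase centre, and each had an interval inside 1.5-fold. Rpl3 was at 1168, 1193 and 1251 FPKM with PGE2 and 1296, 1151 and 1162 FPKM with vehicle, a log2 change of 0.00 (interval -0.24 to 0.25). The 7 proteins of the tunnel exit, where the new chain leaves, also all had intervals inside 1.5-fold, with changes from -0.05 to 0.11. Of 4 proteins of mRNA entry and decoding 3 did so, and all 4 were between 0.05 and 0.08. Rps6, which S6 kinase phosphorylates downstream of mTORC1, was at 1290, 1420 and 1574 FPKM with PGE2 and 1413, 1237 and 1311 FPKM with vehicle (log2 change 0.11, adjusted p = 0.79 with limma). Of 9 genes mutated in human Diamond-Blackfan anaemia, a failure of red cell production, 0 were called by limma with or without the block and for 0 was p before adjustment under 0.05, and their median log2 change was 0.06.

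Rps27a is made as a fusion with ubiquitin and so supplies both proteins. It was at 436, 896 and 583 FPKM with PGE2 and 463, 498 and 533 FPKM with vehicle (log2 change 0.30, interval -0.27 to 0.86). PGE2 replicate 2 was high and PGE2 replicate 1 was the lowest of the 6. Without PGE2 replicate 2 the log2 change was 0.02, and without PGE2 replicate 1 it was 0.54. Fau was at 1121, 1230 and 1372 FPKM with PGE2 and 1176, 1050 and 1009 FPKM with vehicle (log2 change 0.20, adjusted p = 0.57 with limma).

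Next to 2 core genes described further on, the lowest changes belonged to 2 paralogs. Rpl7l1 (ENSMUSG00000063888.6, chromosome 17 from 46773907 to 46782656, mm10) was at 22.8, 26.2 and 24.8 FPKM with PGE2 and 28.7, 28.7 and 31.2 FPKM with vehicle. All PGE2 libraries were below all vehicle libraries. Its log2 change was -0.25 (SE 0.09, interval -0.46 to -0.05, adjusted p = 0.27 with limma, 0.14 with the block), and -0.26 in coverage. Rps27l (ENSMUSG00000036781.13, chromosome 9 from 66946086 to 66949516), a target of p53 in human cells, was at 81.1, 96.7 and 134 FPKM with PGE2 and 114, 113 and 168 FPKM with vehicle. Each PGE2 library was below the vehicle library of the same number, while the groups overlapped. The labels do not say that libraries of the same number belong together, and how often other genes show this order was not tested. The log2 change of Rps27l was -0.35 (SE 0.22, adjusted p = 0.58 with limma, 0.082 with the block). Neither gene passed the test in any setting tried. Without single libraries the change of Rps27l ranged from -0.54 to -0.16.

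Set against its partner in the same library, each of these paralogs separated the groups, a measure chosen after the values were seen. Rpl7l1 had already separated them by its own level. How often ratios of other genes separate the groups was not tested beyond the 5 pairs. Rps27l stood at 8.84%, 9.65% and 9.60% of Rps27 with PGE2 and at 12.8%, 12.03% and 13.4% with vehicle. The mean was 9.36% ± 0.457 with PGE2 and 12.7% ± 0.694 with vehicle (SD, n = 3 each; exact two-sided permutation p = 0.1, the smallest that 3 against 3 allows, and 0.25 adjusted over 5 pairs). In coverage it stood at 10.47% to 11.47% with PGE2 and 14.1% to 16.1% with vehicle. Rpl7l1 stood at 2.16%, 2.28% and 2.14% of Rpl7 with PGE2 and at 2.60%, 2.89% and 3.11% with vehicle (exact permutation p = 0.1, adjusted 0.25).

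The other pairs overlapped between groups. Rpl22l1, whose level is held down by Rpl22 in mice, stood at 17.1%, 19.3% and 26.2% of Rpl22 with PGE2 and at 14.2%, 19.9% and 32.04% with vehicle (exact permutation p = 0.9). It was at 84.3, 95.4 and 159 FPKM with PGE2 and 75.7, 91.8 and 161 FPKM with vehicle, high in both libraries numbered 3. Rpl36al stood at 45.7%, 48.2% and 36.0% of Rpl36a with PGE2 and at 51.0%, 51.4% and 40.1% with vehicle (exact permutation p = 0.5), and each PGE2 library was below the vehicle library of the same number. Rps4x, the X-linked form of S4, was at 1413, 1574 and 1692 FPKM with PGE2 and 1458, 1353 and 1437 FPKM with vehicle. The processed pseudogene Rps4l stood at 0.120%, 0.118% and 0.149% of Rps4x with PGE2 and at 0.151%, 0.180% and 0.135% with vehicle (exact permutation p = 0.2).

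**Figure D3:**
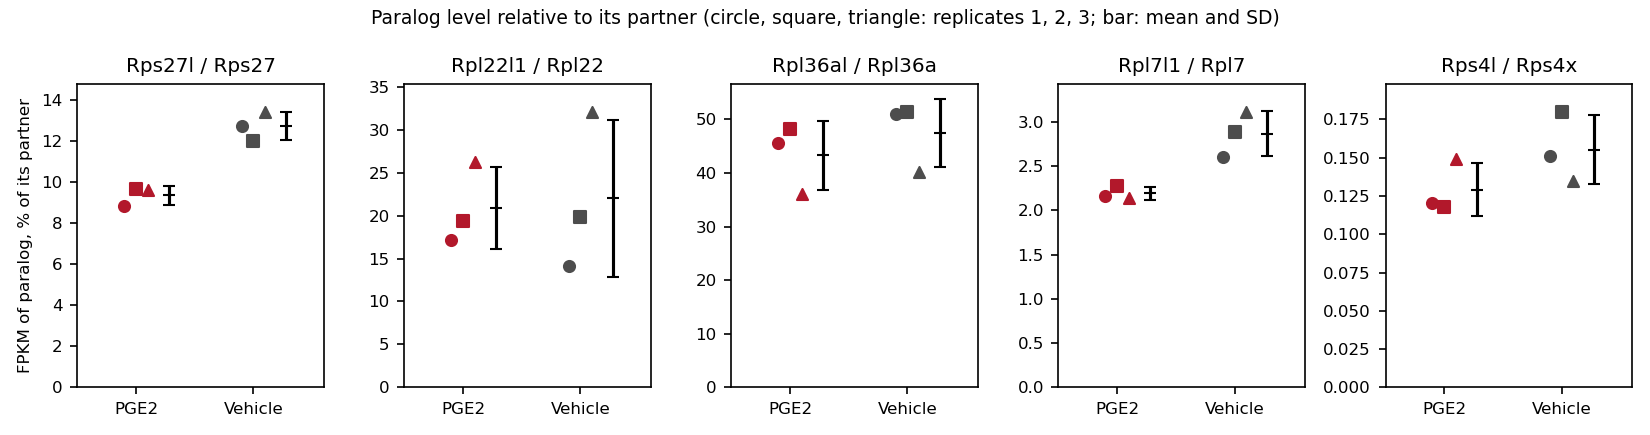
FPKM of the paralogs Rps27l, Rpl22l1, Rpl36al and Rpl7l1 and of the pseudogene Rps4l, as a percent of their partner in each library, PGE2 left and vehicle right; bars give mean and SD. Rps27l is below 10% of Rps27 in all PGE2 libraries and at 12% or more in all vehicle libraries, while Rpl22l1, Rpl36al and Rps4l overlap.

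The largest fold values of the family came from genes whose FPKM and coverage went apart. Rpl35a (ENSMUSG00000060636.13, chromosome 16 from 33056453 to 33060189, 8 annotated transcripts) was at 110, 106 and 151 FPKM with PGE2 and 747, 117 and 140 FPKM with vehicle. Vehicle replicate 1 alone was high, and without it the log2 change was -0.09. The log2 change was -0.93 (SE 0.64) in FPKM and 0.01 (SE 0.18) in coverage. The loci assembled by the authors over this gene were at 135, 987 and 1293 FPKM with PGE2 and 747, 143 and 344 FPKM with vehicle. The annotated and assembled values therefore ranked the libraries differently.

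Rps18 (ENSMUSG00000008668.14, chromosome 17 from 33951999 to 33956001, 11 transcripts), of the head of the small subunit, was at 510, 575 and 2319 FPKM with PGE2 and 944, 1566 and 1937 FPKM with vehicle. Its log2 change was -0.69 (SE 0.57) in FPKM and 0.05 (SE 0.16) in coverage. The assembled locus was steadier, at 1884, 1894 and 2327 FPKM with PGE2 and 2133, 1572 and 1943 FPKM with vehicle. Rpl21 was at 44.6, 96.4 and 198 FPKM with PGE2 and 225, 53.5 and 38.0 FPKM with vehicle, yet its coverage divided by depth stayed between 30.3 and 44.2. Rpl41, the shortest ribosomal protein, had the highest log2 change, 0.50 (SE 0.47), against 0.26 (SE 0.20) in coverage. With both libraries numbered 3 left out, the change of Rpl41 was -0.24, that of Rpl21 -0.73 and that of Rps18 -1.17, none of them called.

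**Figure D4:**
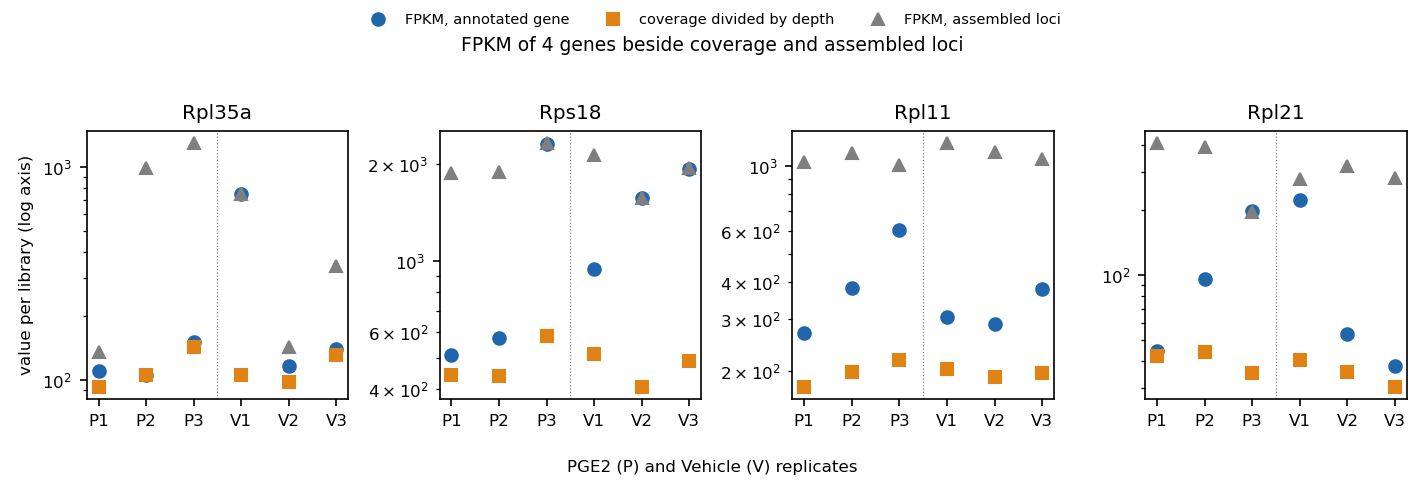
FPKM of the annotated gene (circles), coverage divided by library depth (squares) and FPKM of the assembled loci over the gene (triangles) for Rpl35a, Rps18, Rpl11 and Rpl21 in each library, on log axes. The squares vary little within each panel, whereas the circles of Rpl35a jump in vehicle replicate 1 and those of Rps18 range from 510 to 2319.

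Across the 77 core genes the coefficient of variation between replicates had a median of 14.2% with PGE2 and 10.7% with vehicle in FPKM, and of 11.8% and 9.73% in coverage. It exceeded 40% for 5 core genes with PGE2 and 4 with vehicle in FPKM, and for 0 in coverage. For 4 of the 87 genes the change in FPKM and that in coverage differed by more than 0.2 on the log2 scale, and 80 of the 87 have more than 1 annotated transcript.

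Other parts of the translation machinery had lower medians than the ribosomal proteins. Of 33 initiation and termination factors 0 were called by limma with or without the block, p before adjustment was under 0.05 for 8, all lower, and the groups did not overlap for 14, all lower with PGE2. Over all 12113 tested genes these counts were 919 and 1446 in that direction (7.59% and 11.9%). Their median log2 change was -0.14. Pabpc1, the poly(A)-binding protein and the highest of them, was at 362, 375 and 332 FPKM with PGE2 and 398, 390 and 372 FPKM with vehicle. Of 7 elongation factors 0 were called with or without the block, p before adjustment was under 0.05 for 1, which was lower, and the median was 0.04; Eef1a1, which brings aminoacyl-tRNA to the ribosome, was at 7327, 5804 and 6153 FPKM with PGE2 and 6995, 4847 and 5843 FPKM with vehicle. Of 16 further genes known for TOP mRNAs, some of them also factors, 0 were called and the median was 0.01.

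Genes that escort ribosomal proteins or mature the subunits had the lowest median, -0.18, with 1 of 15 fallen and 0 risen, while p before adjustment was under 0.05 for 5, all lower. Of all tested genes 29 of 12113 fell, and 7.59% were lower at that p. Grwd1, whose yeast homolog Rrb1 is the chaperone of Rpl3, fell to 6.55, 6.99 and 6.52 FPKM with PGE2, against 11.1, 10.7 and 10.3 FPKM with vehicle (log2 change -0.61, SE 0.08, adjusted p = 0.029 with limma). Its log2 change stayed between -0.63 and -0.58 without any 1 of the 6 libraries, but it then missed the threshold, at adjusted p of 0.052 to 0.16 with limma. It passed with the block (adjusted p = 0.019, limma) and with both libraries numbered 3 left out (0.048). It missed the threshold at 0.051 with FPKM rescaled to a common sum (log2 change -0.68) and at 0.38 with coverage that was not scaled to depth (-0.56). Of 18 regulators of mTORC1 and TOP mRNAs 0 were called without the block and 1 with it, and the median was -0.09. Sesn2, a stress-induced inhibitor of mTORC1, was at 20.7, 17.4 and 15.7 FPKM with PGE2 and 31.0, 24.0 and 20.2 FPKM with vehicle, and passed with the replicate block (log2 change -0.45, adjusted p = 0.31 without the block and 0.039 with it, limma). Cnbp, the highest of this list, had a log2 change of 0.03.

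Mitochondrial ribosomal proteins, which are encoded in the nucleus and serve the separate ribosome of the organelle, had a median log2 change of -0.07 over 77 genes. Of these 0 were called by limma with or without the block, p before adjustment was under 0.05 for 7, all lower (9.09%, against 7.59% of all tested genes), and 59 had a lower mean log2 level with PGE2, as did 6863 of all tested genes. The groups did not overlap for 10, all lower with PGE2 (13.0%, against 11.9% of all tested genes in that direction). Mrpl52, the highest, was at 79.1, 91.1 and 104 FPKM with PGE2 and 99.2, 83.3 and 95.4 FPKM with vehicle. The difference between these medians and that of the cytosolic ribosomal proteins was not tested.

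**Figure D5:**
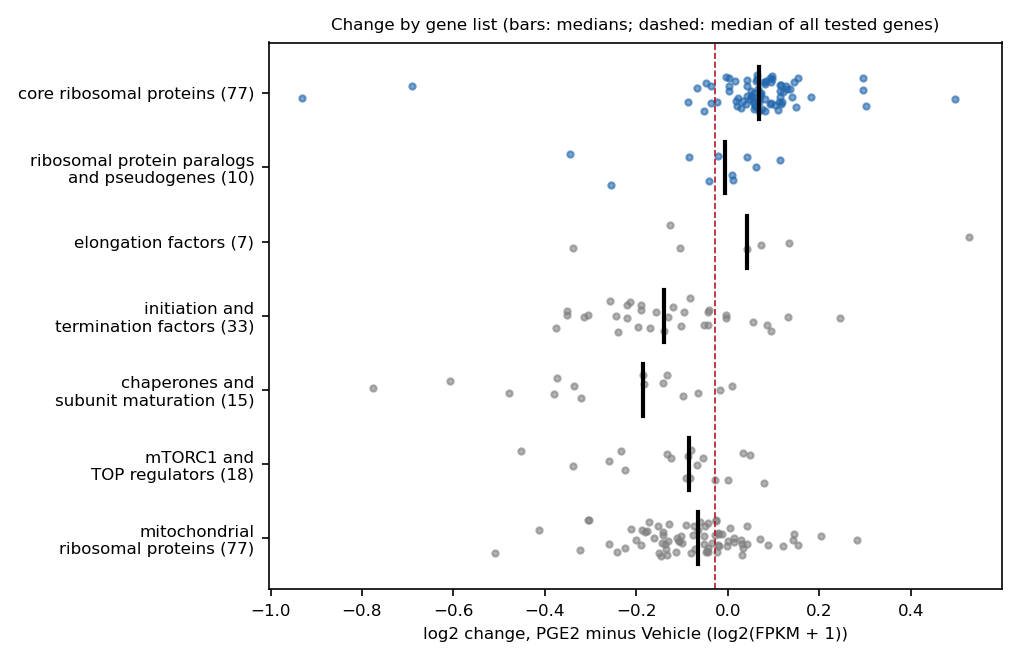
Log2 change of each gene, PGE2 minus vehicle on the log2(FPKM + 1) scale, by list, with the number of genes in brackets, bars at the medians and a dashed line at the median of all tested genes, -0.03. Core ribosomal proteins centre on 0.07, initiation and termination factors on -0.14, and chaperones and maturation factors on -0.18.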

How the data were processed

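Libraries came from a stranded mRNA kit, per the labels' protocols, and were processed with Trim Galore and HISAT2 on mm10, per the submitters' processing notes; the program that made the gene tables is not given in the sources used here. FPKM, as the authors deposited it, is relative to the length of the transcript and the size of the library. The deposited coverage is a read depth per gene, and was divided by the median ratio of coverage to FPKM over 2560 genes with 1 transcript, the measure of depth used here. Counts are not at hand, so no counting interval was computed. The deposited TPM column, treated as a score because assembled loci recur under their annotated genes, was not used.

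Repeated entries of a gene ID were added up. All genes averaging 1 FPKM or more were fitted as log2(FPKM + 1), which understates changes of low genes, with limma 3.58.1 (R 4.3.3) with a variance trend, no covariate and Benjamini-Hochberg adjustment over 12113 genes. Same-numbered libraries deviated together (r = 0.227, 0.312 and 0.529 across genes), so the replicate number was also used as a block; over the 87 members alone r was -0.088, -0.126 and 0.0995. The script was tested on simulated data. There limma called 35 of 100 genes changed 1.5-fold and 82 of 100 changed 2-fold at adjusted p under 0.05, with 5 false calls. The simulation covered 12113 genes, so these rates are not specific to the 87 members. PGE2 replicate 1 correlated slightly more with vehicle replicate 2 (r = 0.271). The members and lists were chosen with earlier results of these data known. Named members are those of set roles and paralog pairs, the 6 highest, the 6 largest changes each way and the 6 with the largest gap between FPKM and coverage; from other lists, called genes or the highest. Rps6, Rpl8, Rpl17, Sesn2, the split into core and other genes, the 400-base and 100 FPKM limits, the motif search and the paralog ratios were chosen after values were seen. Alternatives were pseudocount, filter, scaling, coverage, variance trend, block and each library left out. Figures used matplotlib 3.10.9 in Python 3.11.15.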

Additional observations from a re-analysis of the deposited data

How the results depend on the processing

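No ribosomal protein gene was called under any of the alternatives run. Without each library in turn, the median log2 change of the 87 genes ranged from -0.04 to 0.14 and the ratio of their summed FPKM from 0.966 to 1.11, so neither has a settled direction. The median was 0.17 for coverage with no depth scaling, 0.11 with equal medians of all genes and 0.02 with FPKM rescaled to a common sum. Equal medians moved the median of all tested genes to 0.02 and the common sum moved it to -0.07. The lowest adjusted p of a named member was 0.053, for Rps27l with coverage and the replicate block, an alternative chosen after seeing the data. Of 492 values of named members under the alternatives, 57 changed sign, none of them called in either fit, so they are not counted as reversals.

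The counts over all genes moved more, from 69 rises and 29 falls. They were 33 and 12 with no filter, 112 and 47 with coverage divided by depth, and 24 and 1 with coverage that was not scaled. There were 13 falls with FPKM rescaled to a common sum, 16 with no variance trend and 44 with both libraries numbered 3 left out. With the replicate block they were 215 and 180, and 325 and 310 with coverage and the block. Without each library in turn, 16 to 53 rose and 4 to 16 fell. The cause was not tested. Precision is limited by 3 libraries a group, and counting error could not be computed.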
